A study of Mus musculus with 9 samples.

Results

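P2ry12, Tmem119, Cx3cr1, Csf1r, Aif1, Sall1, Gpr34, Siglech and Fcrls are genes that microglia, the resident macrophages of the brain, express at rest. They were picked by symbol from the deposited count table. All 9 of 9 were found among its 20731 genes, and 9 of 9 were among the 14746 genes that passed the filter on low counts. Bulk RNA of male C57BL/6J mice aged 8 to 10 weeks was sequenced in 3 groups of 3 mice, each 2 days after a thrombosis of the superior sagittal sinus had been made with ferric chloride. CVST mice had this cerebral venous sinus thrombosis alone. CVST_Ligation mice also had their deep cervical lymph nodes ligated on both sides. CVST_Ligation_4_PBA mice, here the 4-PBA group, had thrombosis, ligation and an intraperitoneal injection of 4-phenylbutyric acid (100 mg/kg), which dampens stress of the endoplasmic reticulum. The methods place the injection 30 minutes before modelling, whereas the series text places it after ligation. The sample labels give the tissue as brain and the series text as cortex. Every group carries the thrombosis, and no sham or untreated group was analysed here. The libraries held 18100739 to 25091498 counts, and the lowest count of a member in any library was 128 (Siglech, 4-PBA replicate 3).

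As background, resting microglia scan the tissue with moving processes and hold a set of surface receptors that read signals of neurons and glia. P2ry12 is a purinergic receptor for ADP, Cx3cr1 is the receptor of the neuronal chemokine fractalkine (Cx3cl1), Csf1r binds the survival factors Csf1 and Il34, and Gpr34 is a receptor for lysophosphatidylserine. Siglech is a surface protein of the Siglec family, and Fcrls is an Fc receptor-like surface protein. Tmem119 is a membrane protein used as a microglia marker. Aif1 (Iba1) is an actin-binding protein of the cytoplasm of macrophages, and Sall1 is a transcription factor that keeps microglia in their resident state. Homeostatic genes such as P2ry12 and Tmem119 are known to drop when microglia become activated.

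Levels of different genes were compared per length, as FPKM, the count divided by gene length and library total. Over the 9 libraries the mean FPKM level was 62.1 ± 28.1 (SD, n = 9) for Fcrls, 52.2 ± 6.62 for Csf1r, 28.0 ± 5.88 for P2ry12, 25.1 ± 4.93 for Cx3cr1 and 24.9 ± 7.54 for Aif1. It was 18.9 ± 2.58 for Tmem119, 16.4 ± 3.45 for Gpr34, 9.92 ± 2.31 for Siglech and 8.40 ± 1.10 for Sall1. Neighbours in this order overlapped in their libraries, except Csf1r and P2ry12. In CVST the FPKM level of Fcrls, 88.1 ± 21.4 (SD, n = 3), lay above that of Csf1r, 57.1 ± 6.99, with no overlap. In CVST_Ligation Fcrls and Csf1r overlapped, with mean FPKM levels of 49.1 ± 4.11 and 49.2 ± 7.80, and in the 4-PBA group with 49.0 ± 34.1 and 50.4 ± 3.33. Aif1 ranked above P2ry12 in CVST, at a mean FPKM of 33.1 ± 3.15 against 28.6 ± 2.98, and below P2ry12 and Cx3cr1 in the other groups, each time with overlapping libraries. This order holds for the lengths behind the deposited FPKM, which are shorter than the annotated exon bases by a different share for each gene, such as 1062 of 4505 for Cx3cr1 and 3969 of 5265 for Sall1. With FPKM rescaled to exon bases, the mean level over the 9 libraries was 40.6 ± 18.4 (SD, n = 9) for Fcrls, 26.5 ± 3.36 for Csf1r, 11.4 ± 2.41 for P2ry12, 9.35 ± 2.84 for Aif1 and 8.83 ± 1.86 for Gpr34. It was 6.86 ± 0.936 for Tmem119, 6.33 ± 0.830 for Sall1, 5.92 ± 1.16 for Cx3cr1 and 2.93 ± 0.683 for Siglech. On that scale Cx3cr1 moved from the fourth to the eighth place and Aif1 lay above it in each group. Siglech came last, and Fcrls lay above Csf1r without overlap also in CVST_Ligation. The rescaled order would hold only if reads were counted over all annotated exon bases. The sources used here do not state which bases were counted, so neither order is preferred.

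Some libraries stood apart. Replicate 3 of the 4-PBA group had the lowest P2ry12 and Siglech levels of the 9 libraries, while its Fcrls and Aif1 levels were nearer to CVST than to the other libraries of its own group. The 26 tested of 28 listed activated microglia genes had a mean log2 level of 4.34 in this library, where levels are CPM after trimmed-mean scaling of the library totals, against 2.82 to 3.94 in the others. Spp1 stood at 401 CPM there and at 29.9 to 262 elsewhere, and Lgals3 at 16.9 CPM against 1.41 to 4.79, both picked after their values were seen. Replicate 2 of CVST_Ligation had 1987 CPM summed over 10 cerebellum markers, against 109 to 223 CPM in the other libraries. Replicate 1 of the 4-PBA group had 3160 CPM summed over 7 choroid plexus markers, against 22.0 to 988 CPM elsewhere. The members' results that rest on such libraries are given with and without them. Counts of the lists of other genes are also given without the pair of CVST_Ligation replicate 2 and 4-PBA replicate 3, and without 4-PBA replicate 1, and for these lists no other library was left out. The pair was chosen after seeing the data, and replicate 3 partly by the levels of P2ry12, Siglech, Fcrls and Aif1 themselves, so values of members without that pair or that replicate describe the remaining libraries and are no test.

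Among the receptors, P2ry12 stood at 27.2, 30.2 and 34.3 CPM in CVST, 38.4, 22.1 and 27.3 CPM in CVST_Ligation, and 30.8, 34.5 and 17.9 CPM in the 4-PBA group. The groups overlapped fully, and both the highest and the lowest library lay in the groups with ligation. Cx3cr1 stood at 31.4, 37.5 and 23.5 CPM in CVST, 27.7, 24.9 and 21.6 CPM in CVST_Ligation, and 22.6, 22.6 and 28.0 CPM in the 4-PBA group. The highest pair of Cx3cr1 libraries belonged to CVST, yet CVST replicate 3 lay among the libraries with ligation. Csf1r, the receptor with the highest level, stood at 163, 191 and 160.5 CPM in CVST, 163, 146 and 122 CPM in CVST_Ligation, and 154, 137 and 142 CPM in the 4-PBA group. All Csf1r libraries of the 4-PBA group lay below CVST, while CVST_Ligation replicate 1 reached the CVST range. Gpr34 stood at 16.1, 23.5 and 24.6 CPM in CVST, 18.8, 14.0 and 12.4 CPM in CVST_Ligation, and 19.3, 17.8 and 19.9 CPM in the 4-PBA group. Gpr34 was lowest in CVST_Ligation replicates 2 and 3, and CVST replicate 1 lay below every library of the 4-PBA group.

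Of the other surface proteins, Siglech stood at 11.6, 10.7 and 13.4 CPM in CVST, 10.5, 7.22 and 9.80 CPM in CVST_Ligation, and 11.0, 10.7 and 4.88 CPM in the 4-PBA group. CVST_Ligation lay wholly but narrowly below CVST, and the 4-PBA group spanned the lowest library and others at the CVST level. Fcrls stood at 129, 171 and 113 CPM in CVST, 76.3, 78.2 and 70.0 CPM in CVST_Ligation, and 44.1, 44.3 and 129 CPM in the 4-PBA group. The CVST_Ligation libraries lay close together and below every CVST library, replicates 1 and 2 of the 4-PBA group lay lower still, and its replicate 3 lay within CVST. Tmem119 stood at 17.1, 18.9 and 17.4 CPM in CVST, 18.2, 12.7 and 13.7 CPM in CVST_Ligation, and 16.6, 13.3 and 15.4 CPM in the 4-PBA group. Every Tmem119 library of the 4-PBA group lay below CVST, and CVST_Ligation replicate 1 lay within CVST.

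Aif1 stood at 19.1, 17.5 and 22.1 CPM in CVST, 10.1, 11.0 and 13.5 CPM in CVST_Ligation, and 10.1, 9.34 and 16.7 CPM in the 4-PBA group. Every library with ligation lay below every CVST library for Aif1, with 4-PBA replicate 3 the nearest to CVST. Sall1, the transcription factor, stood at 32.7, 35.2 and 28.9 CPM in CVST, 29.4, 35.9 and 29.0 CPM in CVST_Ligation, and 39.2, 33.4 and 35.6 CPM in the 4-PBA group. The groups overlapped for Sall1, and its highest library was 4-PBA replicate 1.

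**Figure D1:**
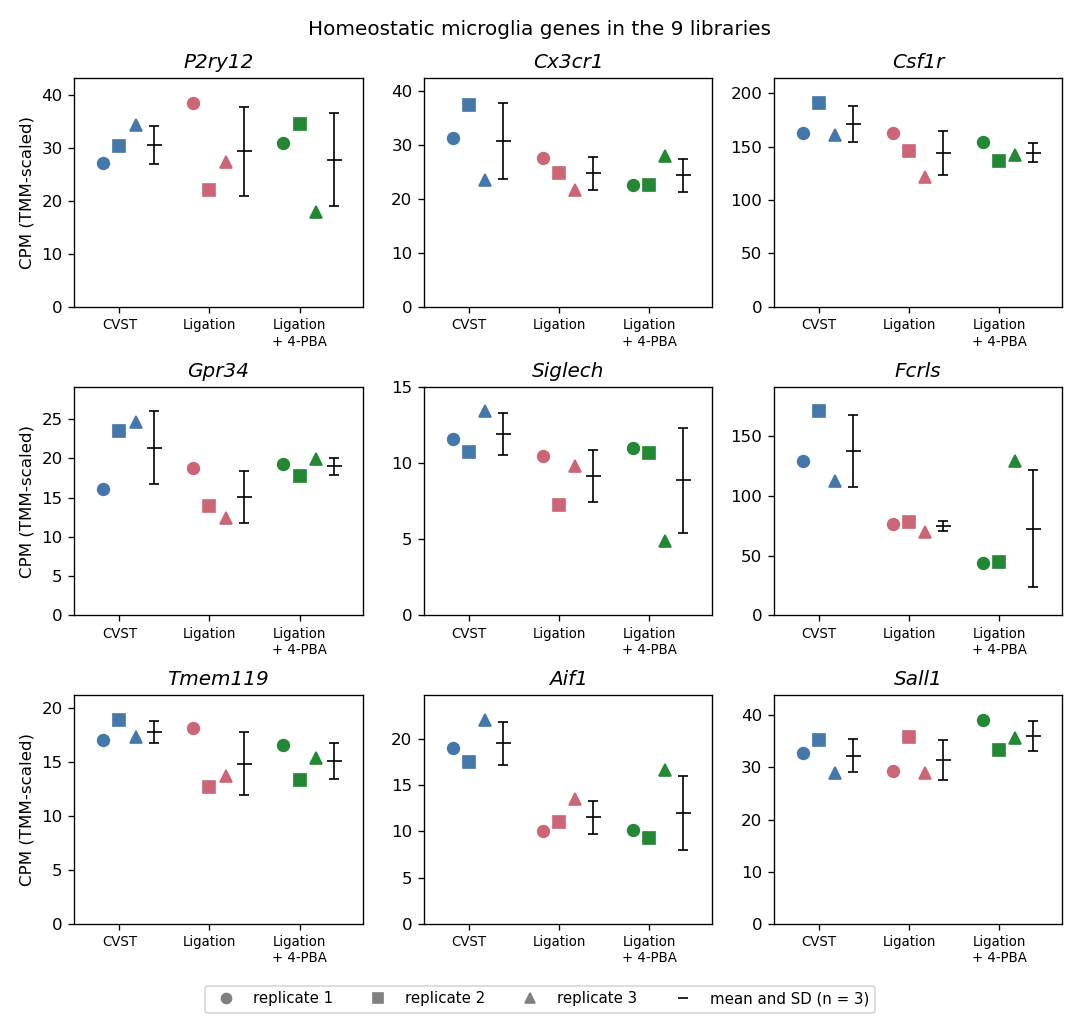
Level of each of the 9 genes in each library (vertical axis: CPM after trimmed-mean scaling, from 0; horizontal axis: group), with the mean and SD of 3 libraries beside the points. Aif1 lies between 17.5 and 22.1 CPM in CVST and between 9.34 and 16.7 CPM in the libraries with ligation.

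CVST_Ligation against CVST asks what ligation of the cervical nodes adds to the thrombosis. Fcrls averaged 74.8 ± 4.26 CPM (SD, n = 3) against 138 ± 29.9 CPM, a fold of 0.543 with a 95% confidence interval of 0.300 to 0.983. Aif1 averaged 11.5 ± 1.76 CPM against 19.6 ± 2.35 CPM, a fold of 0.590 with an interval of 0.402 to 0.864. Gpr34 averaged 15.1 ± 3.30 CPM against 21.4 ± 4.63 CPM, a fold of 0.705 with an interval of 0.504 to 0.986. In bulk samples fewer microglia and less of these RNAs per cell cannot be told apart. In the edgeR quasi-likelihood test, with Benjamini-Hochberg adjustment over 14746 genes, Aif1 had a log2 fold change of -0.76 (adjusted p = 0.381), Fcrls of -0.88 (adjusted p = 0.509) and Gpr34 of -0.50 (adjusted p = 0.502). At an adjusted p of 0.05, 0 of 9 members passed with edgeR, DESeq2 and both limma fits on log2 FPKM, where 3 of all genes tested, 0.0203%, passed with edgeR, 260 with DESeq2 and 3 and 13 with limma. At an unadjusted 0.05, edgeR and DESeq2 each called 3 members lower, and each limma fit called 1, beside 4.18% of all genes tested called lower by edgeR. The count of members called higher was 0 with edgeR, DESeq2 and limma, beside 5.47% of all genes. Aif1, Siglech and Fcrls, 3 of 9, had no overlap between the groups with CVST_Ligation lower, beside 7.21% of all genes tested.

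Log2 fold changes of the other members between CVST_Ligation and CVST were -0.38 for Siglech (95% interval -1.06 to 0.31), -0.32 for Cx3cr1 (-0.76 to 0.13), -0.26 for Tmem119 (-0.67 to 0.15), -0.26 for Csf1r (-0.56 to 0.05), -0.06 for P2ry12 (-0.67 to 0.55) and -0.04 for Sall1 (-0.37 to 0.30). The 9 log2 fold changes were below 0, but Sall1 turned above 0 with scaling by total counts and without CVST replicate 2, CVST_Ligation replicate 1 or CVST_Ligation replicate 3, and P2ry12 without CVST replicate 3, without CVST_Ligation replicate 2, and without the pair of CVST_Ligation replicate 2 and 4-PBA replicate 3. Their median was -0.32, against 0.0021 over all genes tested, of which 49.7% lay below 0.

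Aif1 kept its unadjusted call when any of the 6 libraries compared was left out, with log2 fold changes of -0.89 to -0.68. Gpr34 lost it without CVST replicate 2 (log2 fold change -0.43), CVST replicate 3 (-0.41), CVST_Ligation replicate 2 (-0.45) or CVST_Ligation replicate 3 (-0.38). Fcrls lost it without CVST replicate 1 (-0.93) or 2 (-0.69), or without CVST_Ligation replicate 1 (-0.90), 2 (-0.91) or 3 (-0.83), and kept it without CVST replicate 3 (-1.02). With scaling by total counts, a block for replicate number and both limma fits, Fcrls (-0.89 to -0.81) and Gpr34 (-0.50 to -0.43) lost the call. The fit of all groups shares an estimate of the spread, and 4-PBA replicate 3 is in it. In the fit of these 2 groups alone Fcrls kept its call, with a log2 fold change of -0.88 (adjusted p = 0.339, and 0.305 to 0.663 over all alternatives), and Gpr34 lost it at -0.50. Other members passed the unadjusted threshold when a library was left out: Cx3cr1 without CVST replicate 3 (log2 fold change -0.50), and Tmem119 (-0.44) and Csf1r (-0.36) without CVST_Ligation replicate 1. Without CVST_Ligation replicate 2, the library with the high cerebellum markers, the log2 fold change of Aif1 was -0.73. Without it and 4-PBA replicate 3, Aif1 (-0.73) and Fcrls (-0.92) kept the unadjusted call and Gpr34 (-0.45) lost it. Without 4-PBA replicate 1, which is also in the fit of all groups, 2 members instead of 3 were called lower in this comparison. Their median log2 fold change over the 9 members was then -0.32.

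The 4-PBA group against CVST_Ligation sets thrombosis with ligation and drug beside thrombosis with ligation. The methods give solvent to control mice and do not say whether CVST_Ligation mice received it. If they did not, drug and injection cannot be told apart. Gpr34 had the highest fold of the 9 genes, at 19.0 ± 1.06 CPM (SD, n = 3) against 15.1 ± 3.30 CPM, a log2 fold change of 0.33 with a 95% interval of -0.15 to 0.82. Sall1 averaged 36.0 ± 2.93 CPM against 31.4 ± 3.89 CPM, a log2 fold change of 0.20 (-0.14 to 0.53). Fcrls averaged 72.5 ± 49.0 CPM against 74.8 ± 4.26 CPM, with replicates 1 and 2 of the 4-PBA group below every CVST_Ligation library and replicate 3 above them. The remaining log2 fold changes were 0.06 for Aif1 (-0.49 to 0.61), 0.02 for Tmem119 (-0.39 to 0.43), 0.0053 for Csf1r (-0.30 to 0.31), -0.02 for Cx3cr1 (-0.46 to 0.43), -0.05 for Siglech (-0.74 to 0.64) and -0.08 for P2ry12 (-0.69 to 0.53). With edgeR, 0 of 9 members passed at an adjusted p of 0.05, as did 0% of all genes tested (22 genes with DESeq2, and 2 and 0 with limma), and the adjusted p of each member was 0.9998. DESeq2 and both limma fits called 0 members adjusted, and edgeR, DESeq2 and limma called 0 at an unadjusted 0.05, beside 1.42% of all genes lower and 1.81% higher with edgeR. The groups overlapped for 9 of 9 members, beside 4.22% of all genes whose 4-PBA libraries lay wholly lower. The median of the 9 log2 fold changes was 0.0053, against -0.017 over all genes tested, of which 53.0% lay below 0.

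Fcrls in this comparison rested on 4-PBA replicate 3. Without that library the log2 fold change of Fcrls was -0.76 (adjusted p = 0.959), and without it and CVST_Ligation replicate 2 it was -0.72 (adjusted p = 0.322). Both passed the unadjusted threshold, while the adjusted p over all alternatives ran from 0.322 to 1. Gpr34 passed the unadjusted threshold without CVST_Ligation replicate 1, with a log2 fold change of 0.54.

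The 4-PBA group against CVST sets thrombosis with ligation and drug beside thrombosis alone, and it shares its CVST libraries with the comparison of CVST_Ligation and its 4-PBA libraries with the comparison above. Fcrls averaged 72.5 ± 49.0 CPM (SD, n = 3) against 138 ± 29.9 CPM, a fold of 0.527 with a 95% interval of 0.291 to 0.953. Aif1 averaged 12.04 ± 4.01 CPM against 19.6 ± 2.35 CPM, a fold of 0.616 with an interval of 0.421 to 0.902. Csf1r averaged 144 ± 8.86 CPM against 171 ± 16.9 CPM, and Tmem119 15.1 ± 1.66 CPM against 17.8 ± 0.999 CPM. In the edgeR test Aif1 had a log2 fold change of -0.70 (adjusted p = 0.218) and Fcrls of -0.92 (adjusted p = 0.288). With edgeR, DESeq2 and both limma fits 0 of 9 members passed at an adjusted p of 0.05, where 18 of all genes tested, 0.122%, passed with edgeR, 828 with DESeq2 and 87 and 134 with limma. At an unadjusted 0.05 each of these tools called 2 members lower and 0 higher, beside 7.33% of all genes lower and 8.07% higher with edgeR. Tmem119, Csf1r and Aif1, 3 of 9, had no overlap with the 4-PBA group lower, beside 11.5% of all genes tested.

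The log2 fold changes of the other members between the 4-PBA group and CVST were -0.43 for Siglech (95% interval -1.12 to 0.26), -0.34 for Cx3cr1 (-0.78 to 0.11), -0.25 for Csf1r (-0.56 to 0.06), -0.24 for Tmem119 (-0.65 to 0.17), -0.17 for Gpr34 (-0.65 to 0.31), -0.14 for P2ry12 (-0.75 to 0.47) and 0.16 for Sall1 (-0.18 to 0.49). So 8 of 9 lay below 0, but P2ry12 turned above 0 without 4-PBA replicate 3, alone or together with CVST_Ligation replicate 2. The median was -0.25, against -0.0084 over all genes tested, of which 51.1% lay below 0. For Fcrls the log2 fold changes of the 3 comparisons, side by side, were -0.88, -0.04 and -0.92, for Aif1 -0.76, 0.06 and -0.70, and for Gpr34 -0.50, 0.33 and -0.17. The 4-PBA group against CVST_Ligation is itself the test of the difference between the other 2 comparisons.

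Single libraries decided the calls of the 4-PBA group against CVST. Without 4-PBA replicate 3 the log2 fold change of Fcrls was -1.64 (adjusted p = 0.0316) and that of Aif1 -1.01 (adjusted p = 0.0835). That fit had 35 of all genes at an adjusted p below 0.05. Without it and CVST_Ligation replicate 2, the values were -1.64 (adjusted p = 0.0109) for Fcrls and -1.002 (adjusted p = 0.0444) for Aif1. These were 2 of 9 members below 0.05, beside 577 of 14826 genes tested, 3.89%, in the same fit. As replicate 3 had been singled out partly by its Fcrls and Aif1 levels, both fits are a description and no test of these genes. Over all alternatives the adjusted p ran from 0.0109 to 0.643 for Fcrls and from 0.0444 to 0.548 for Aif1. Fcrls lost its unadjusted call without CVST replicate 1 (log2 fold change -0.96) or 2 (-0.72), without 4-PBA replicate 1 (-0.65) or 2 (-0.67), with scaling by total counts (-0.85) and in the fit of these 2 groups alone (-0.91). Aif1 lost it without CVST replicate 3 (-0.62), 4-PBA replicate 1 (-0.57) or 4-PBA replicate 2 (-0.54). Cx3cr1 gained it without CVST replicate 3 (log2 fold change -0.51).

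**Figure D2:**
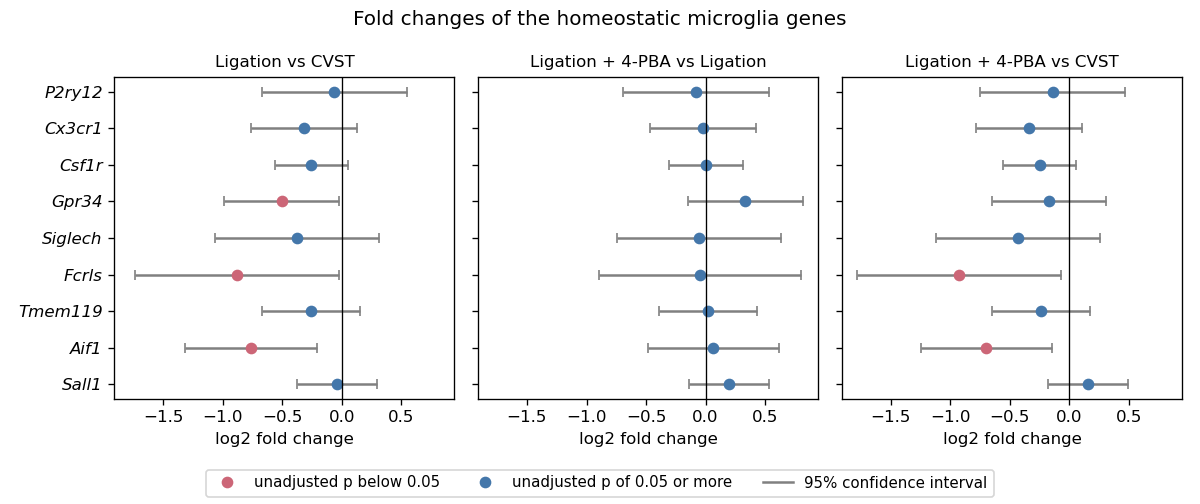
Log2 fold change of each gene (horizontal axis) with its 95% confidence interval from edgeR in the 3 comparisons, red where the unadjusted p is below 0.05. Intervals of Aif1 and Fcrls lie below 0 in both comparisons with CVST, and that of Gpr34 lies below 0 in CVST_Ligation against CVST.

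Averaged over the 9 genes, the log2 CPM was 5.01, 5.19 and 5.07 in CVST, 4.86, 4.62 and 4.63 in CVST_Ligation, and 4.74, 4.65 and 4.77 in the 4-PBA group. Every library with ligation lay below every CVST library in this average, with group means of 5.09 ± 0.09 (SD, n = 3), 4.70 ± 0.13 and 4.72 ± 0.06. The summed level was 448, 535 and 437 CPM in CVST, 392, 352 and 319 CPM in CVST_Ligation, and 348, 323 and 409 CPM in the 4-PBA group. Fcrls had the highest mean FPKM over the 9 libraries and in CVST, while in each group with ligation it overlapped Csf1r. The members held 0.0311% to 0.0535% of the counts of a library. In CVST replicate 2 all 9 genes lay above their own mean over the libraries, whereas in CVST_Ligation replicates 2 and 3 this held for 1 gene each. That gene was Sall1 in replicate 2 and Siglech in replicate 3.

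Across the 9 libraries the members did not all vary together. Of the 36 pairs of members, 26 had a Pearson r of log2 CPM above 0 and 6 an r above 0.7, with a median of 0.353, where libraries share their group and their scaling. The highest r was 0.867 for P2ry12 and Siglech (n = 9), which was 0.685 without 4-PBA replicate 3, where both genes were lowest. Aif1 and Fcrls had an r of 0.842 (n = 9), and 0.834 without that library. Tmem119 and Csf1r had 0.823, Cx3cr1 and Fcrls 0.793, Cx3cr1 and Csf1r 0.786, and Tmem119 and Gpr34 0.718. The lowest r was -0.438, for P2ry12 and Sall1. P2ry12 and Fcrls, both high in resting microglia, had an r of -0.329, and -0.15 without 4-PBA replicate 3.

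**Figure D3:**
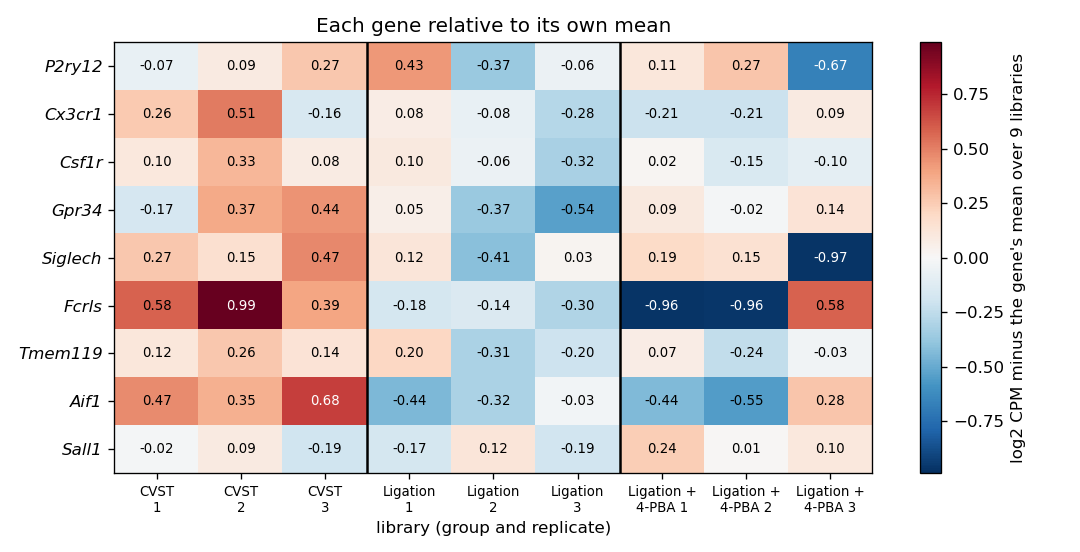
Log2 CPM of each gene (vertical axis) minus its own mean over the 9 libraries (colour and number), by library (horizontal axis). Fcrls and Aif1 are above their mean in CVST and 4-PBA replicate 3, and P2ry12 and Siglech are lowest in that replicate.

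Lists of other genes tied to microglia were read beside the members at an unadjusted 0.05. The lists were chosen by function, with earlier results of these data known. Some of these genes are also made by other cells, and bulk RNA does not show which cells a transcript came from. Of all genes tested, edgeR called 4.18% lower and 5.47% higher in CVST_Ligation against CVST, 1.42% and 1.81% in the 4-PBA group against CVST_Ligation, and 7.33% and 8.07% in the 4-PBA group against CVST. Of 20 other homeostatic microglia genes, 6 were lower and 0 higher in CVST_Ligation against CVST, with a median log2 fold change of -0.34, and 0 passed the adjusted threshold. Among them Ltc4s, a leukotriene synthase, stood at 7.18, 6.52 and 8.52 CPM in CVST and at 4.71, 3.76 and 4.62 CPM in CVST_Ligation (log2 fold change -0.76). Of the same 20 genes, 0 were called between the 4-PBA group and CVST_Ligation, and 3 were lower in the 4-PBA group against CVST, among them Olfml3 with a log2 fold change of -0.70. Of 27 ligands, signal partners and transcription factors, 5 were lower and 0 higher in CVST_Ligation against CVST, 0 were called between the 4-PBA group and CVST_Ligation, and 6 were lower and 1 higher in the 4-PBA group against CVST. Spi1, which encodes the macrophage factor PU.1, stood at 9.14, 11.9 and 11.2 CPM in CVST, 5.99, 6.39 and 6.02 CPM in CVST_Ligation, and 4.88, 5.51 and 10.9 CPM in the 4-PBA group. Like Fcrls, it was near the CVST level in 4-PBA replicate 3 and lower in the other libraries with ligation. Cx3cl1, the ligand of Cx3cr1 made by neurons, had log2 fold changes of -0.59 in CVST_Ligation and -0.73 in the 4-PBA group against CVST, and Il34, a ligand of Csf1r, of -0.72 in the 4-PBA group. The gene called higher was Cd200, picked after its values were seen. Without the pair of CVST_Ligation replicate 2 and 4-PBA replicate 3, and in the same order of comparisons, 3, 1 and 5 of the 20 homeostatic genes and 3, 1 and 9 of the 27 partners were lower, beside 4.14%, 4.53% and 9.46% of all genes in that fit. Higher were 0, 0 and 1 of the 20 and 1, 0 and 1 of the 27, beside 4.57%, 5.46% and 10.5% of all genes. There Cx3cl1 lost its call in CVST_Ligation against CVST (log2 fold change -0.33) and kept it in the 4-PBA group against CVST (-0.69). Without 4-PBA replicate 1, 5, 0 and 2 of the 20 and 4, 0 and 4 of the 27 were lower, beside 3.92%, 1.04% and 4.2% of all genes, while 0 of the 20 and 0, 2 and 0 of the 27 were higher, beside 4.95%, 2.3% and 5.94%. Cx3cl1 kept both calls there and Cd200 lost its own (log2 fold change 0.28).

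Of 26 activated microglia genes tested, of 28 listed, 3 were lower and 0 higher in CVST_Ligation against CVST at an unadjusted 0.05, with a median log2 fold change of -0.37. The median was 0.25 in the 4-PBA group against CVST_Ligation, with 22 of 26 above 0, and 0.07 in the 4-PBA group against CVST. Trem2, a lipid-sensing receptor of microglia, stood at 23.5, 26.4 and 27.1 CPM in CVST and at 15.1, 18.9 and 16.6 CPM in CVST_Ligation (log2 fold change -0.61), and Cd68 had a log2 fold change of -0.78. Ccl3 was at 0 in the 3 CVST_Ligation libraries and at 0.255, 1.02 and 0.0543 CPM in CVST, so no fold is given. Against CVST_Ligation, 1 of the 26 was higher in the 4-PBA group (Ccl3) and 0 lower. Against CVST, Apoe was higher (0.82) and Trem2 lower (-0.56) in the 4-PBA group. Markers of border-associated macrophages, 11 tested of 12, had 0 called genes in each of the 3 comparisons. Markers of monocytes and neutrophils, 7 tested of 19, also had 0 in each. By FPKM, Pf4 was most abundant in the first list and S100a9 in the second, except in CVST_Ligation, where S100a8 was. By CPM, Stab1 was highest in the first list, at 9.54 to 38.4 CPM. The border macrophage markers had medians of -0.11 in CVST_Ligation against CVST, 0.52 in the 4-PBA group against CVST_Ligation, with 11 of 11 above 0, and 0.25 in the 4-PBA group against CVST, with 9 of 11 above 0. Those of monocytes and neutrophils were -0.07, 1.003 and 0.87, with 3, 4 and 6 of 7 above 0. Without the pair of doubted libraries, 7 of 24 activated genes tested were lower in CVST_Ligation against CVST (median -0.65), 2 were higher in the 4-PBA group against CVST_Ligation (median 0.04), and 7 were lower and 1 higher in the 4-PBA group against CVST (median -0.38). Of 10 border macrophage markers then tested, 2 were lower, 2 higher and 0 called in the same order, with medians of -0.70, 1.04 and 0.39, and of 9 monocyte and neutrophil markers 1 was lower, 1 higher and 2 higher, with medians of -0.47, 0.65 and 0.014. Without 4-PBA replicate 1, 4 of 27 activated genes tested were lower in CVST_Ligation against CVST (median -0.35), 5 were higher in the 4-PBA group against CVST_Ligation (median 0.55), and 2 were higher and 1 lower in the 4-PBA group against CVST (median 0.29). Of 12 border macrophage markers then tested, 1 was higher and 1 lower, 0 were called and 1 was higher, with medians of -0.08, 0.75 and 0.58, and of 9 monocyte and neutrophil markers 0, 0 and 1 were higher and 0 lower, with medians of -0.07, 1.49 and 0.64. The summed levels of these 2 lists were 14.5 to 59.6 CPM and 9.26 to 27.0 CPM over the 9 libraries, tested or not. Genes at 0 in every library numbered 0 in each list.

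Markers of brain regions differed between the groups that the members were compared in, at an unadjusted 0.05. The sums are over all listed markers, tested or not, which adds 1 to the midbrain and brainstem list and 2 each to the hypothalamus and cerebellum lists. Of 10 midbrain and brainstem markers tested, 10 were higher in CVST_Ligation against CVST, 3 of them at an adjusted p below 0.05 (5 without the pair of doubted libraries and 1 without 4-PBA replicate 1), and 9 were higher in the 4-PBA group against CVST, 5 of them adjusted (8 and 1). These markers had summed levels of 19.0, 19.9 and 20.7 CPM in CVST, 213, 449 and 174 CPM in CVST_Ligation, and 235, 228 and 236 CPM in the 4-PBA group (Ddc most abundant by FPKM in the groups with ligation, Th in CVST). Of 10 striatum markers, 10 were lower in CVST_Ligation, with sums of 1934, 1459 and 1075 CPM in CVST, 229, 299 and 537 CPM in CVST_Ligation, and 537, 1361 and 269 CPM in the 4-PBA group (Penk most abundant). Against CVST, 2 of 10 were lower in the 4-PBA group, 1 without the pair of doubted libraries and 0 without 4-PBA replicate 1. Of 10 cortex markers, 4 were lower in CVST_Ligation and 5 in the 4-PBA group, each against CVST, with sums of 1001, 1084 and 850.2 CPM in CVST, 736, 404 and 728 CPM in CVST_Ligation, and 401, 406 and 592 CPM in the 4-PBA group (Nrn1 most abundant). Of 7 hypothalamus markers tested, 7 were higher in the 4-PBA group against each other group, with sums of 4.46, 4.70 and 5.70 CPM in CVST, 3.72, 6.96 and 22.0 CPM in CVST_Ligation, and 281, 489 and 475 CPM in the 4-PBA group (Pmch most abundant by FPKM in the groups with ligation, Pomc in CVST). Of 9 thalamus markers, 5 were higher in CVST_Ligation and 7 in the 4-PBA group against CVST, with sums of 173, 157 and 106 CPM, then 229, 376 and 319 CPM, then 595, 349 and 659.5 CPM (Prkcd most abundant by FPKM in the 4-PBA group, Adarb1 in the other groups). Of 8 cerebellum markers tested, 7 were higher in CVST_Ligation against CVST, where replicate 2 held 1987 CPM and replicates 1 and 3 held 113 and 184 CPM (Pvalb most abundant). In the 4-PBA group against CVST 1 of 8 was higher, and 1 of 10 without 4-PBA replicate 1. Without the pair, 4 of 7 were higher and 1 lower in that comparison. Without the pair of doubted libraries, 1 of 7 cerebellum markers tested was higher in CVST_Ligation, and the counts were 9 of 10 midbrain and brainstem markers higher, 10 of 10 striatum markers lower, 4 of 10 cortex markers lower and 1 higher, and 4 of 9 thalamus markers higher. For the 4-PBA group against CVST they were then 7 of 10 cortex markers lower, 9 of 10 midbrain and brainstem, 7 of 9 thalamus and 7 of 7 hypothalamus markers higher. Without 4-PBA replicate 1, 9 of 10 cerebellum markers tested, 10 of 10 midbrain and brainstem and 5 of 9 thalamus markers were higher and 10 of 10 striatum and 4 of 10 cortex markers lower in CVST_Ligation, while 4 of 10 cortex markers were lower and 9 of 10 midbrain and brainstem, 7 of 9 thalamus and 7 of 7 hypothalamus markers higher in the 4-PBA group against CVST. Hypothalamus markers were higher in the 4-PBA group against CVST_Ligation in 7 of 7 under both settings. Over all libraries, 4 of 9 thalamus and 2 of 10 striatum markers were also higher. Lower were 2 of 10 cortex, 2 of 10 midbrain and brainstem and 3 of 8 cerebellum markers. Without the pair, 5 of 9 thalamus, 5 of 10 striatum and 2 of 7 cerebellum markers were higher. Lower were then 6 of 10 cortex and 1 of 7 cerebellum markers. Leaving out 4-PBA replicate 1 gave 2 of 9 thalamus and 2 of 10 striatum markers higher. Lower were 2 of 10 midbrain and brainstem and 5 of 10 cerebellum markers. The part of tissue region in the differences of Fcrls, Aif1, Gpr34 and the other members was not tested, and region and treatment cannot be told apart where they move with the same groups.

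Other cell types were read the same way, at an unadjusted 0.05, with 3 counts for each list: over all libraries, without the pair of doubted libraries and without 4-PBA replicate 1. In CVST_Ligation against CVST, markers called higher were 3, 0 and 1 of 9 for astrocytes, 1, 1 and 1 of 8 for oligodendrocytes, 1, 1 and 1 of 5 for their precursors, 2, 1 and 2 of 12 for endothelial and mural cells, 2, 0 and 1 of 5 for red blood cells, 1, 0 and 1 of 7 for choroid plexus and 1, 2 and 1 of 11 for neurons. Those called lower were 0, 1 and 1 for astrocytes and 2, 2 and 1 for neurons. The 4-PBA group against CVST had 6, 7 and 2 oligodendrocyte, 5, 5 and 1 precursor, 3, 4 and 1 choroid plexus, 2, 2 and 2 endothelial and mural, 1, 4 and 0 astrocyte and 2, 4 and 2 neuron markers higher, and 0, 2 and 0 astrocyte and 3, 3 and 4 neuron markers lower. Against CVST_Ligation it had 2, 8 and 0 oligodendrocyte, 0, 3 and 0 precursor, 3, 4 and 1 choroid plexus, 0, 2 and 0 endothelial and mural, 0, 1 and 0 astrocyte and 0, 5 and 0 neuron markers higher, and 0, 1 and 0 astrocyte and 2, 2 and 1 neuron markers lower. Red blood cell markers had 0 calls in both comparisons of the 4-PBA group, and no other list had a marker called lower. Without 4-PBA replicate 1, where fewer libraries enter, the median log2 fold change against CVST was 0.76 instead of 0.97 for oligodendrocyte and 0.40 instead of 0.60 for precursor markers. Their part in the microglia genes' differences was not tested.

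The members lie on 8 chromosomes of the GRCm38 build. P2ry12 (ENSMUSG00000036353, chr3:59216272-59262871) and Fcrls (ENSMUSG00000015852, chr3:87250758-87263738) share chromosome 3 and its minus strand. Aif1 (ENSMUSG00000024397) is at chr17:35170991-35176068 on the minus strand, Siglech (ENSMUSG00000051504) at chr7:55768178-55778925 on the plus strand, Gpr34 (ENSMUSG00000040229) at chrX:13632089-13640858 on the plus strand and Sall1 (ENSMUSG00000031665) at chr8:89027235-89044162 on the minus strand. Cx3cr1 (ENSMUSG00000052336) is at chr9:119901616-120069879 on the minus strand, Tmem119 (ENSMUSG00000054675) at chr5:113793729-113800516 on the minus strand and Csf1r (ENSMUSG00000024621) at chr18:61100598-61132149 on the plus strand. P2ry12 lies inside Med12l and Gpr34 inside Cask, each on the opposite strand, with 9 and 0 exon bases shared. Csf1r shares 873 of its 5774 exon bases with the end of Hmgxb3 on the opposite strand, and Cx3cr1 shares 78 with the antisense gene Gm33858. The methods name an orientation mode for the HISAT2 alignment, while the sources used here do not state whether counting kept the strands apart, so reads in those shared bases could come from either gene.

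The 10 genes whose log2 CPM followed the mean of the members most closely, among 13696 other genes with a mean of at least 1 CPM, were Med25, Spag6, Setmar, Arhgef39, Robo3, Pradc1, Exd2, Tspoap1, Otud1 and Wdr73, with a Pearson r of 0.928 down to 0.895 over 9 libraries that share their groups, and of 0.896 to 0.968 for these genes without 4-PBA replicate 3. Med25, a Mediator subunit, stood at 59.0, 66.2 and 63.8 CPM in CVST, 53.5, 45.6 and 48.9 CPM in CVST_Ligation, and 43.8, 46.3 and 54.3 CPM in the 4-PBA group. For single members, searched after the values were seen, Aif1 was followed by C1qb (r = 0.974, n = 9), Tmem37 (0.948), Eif3l (0.946), Ddx41 (0.943) and C1qa (0.937). C1qb and C1qa encode chains of the complement protein C1q, made by microglia. C1qb stood at 124, 136 and 150.1 CPM in CVST, 86.7, 87.9 and 96.7 CPM in CVST_Ligation, and 78.0, 80.5 and 128 CPM in the 4-PBA group. As for Aif1, 4-PBA replicate 3 was the library with ligation nearest to CVST. Csf1r was followed most closely by Arhgef39 (0.970) and Cx3cr1 by Fhip2b (0.969), Pik3ap1 (0.958), Scarf1 (0.956), Inpp5d (0.949) and Stard8 (0.937). Arhgef39, also among the 10 genes above, stood at 0.308 to 2.48 CPM, so its r rests on low counts.

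Promoters, 250 bases before to 50 after the start, were found for 6 of the 9 genes in the RefSeq table (build GRCm38.p6), in 8 windows since Sall1 has 3. Tmem119, Csf1r and Gpr34 had no entry. Searched on both strands were 5 versions of the purine-rich core that PU.1 and other ETS factors bind, TTGTGGT (bound by Runx factors) and CAGACA (holding the Smad core), all picked after the values were seen. The versions overlap: GAGGAA is part of GAGGAAGT, which is part of AGAGGAAGT, and GGAAGT is part of AGGAAGT and of both longer ones. Of 32851 promoters of this length, GAGGAA was in 28.3%, GAGGAAGT in 3.2%, AGAGGAAGT in 1.0%, GGAAGT in 23.8%, AGGAAGT in 9.4%, TTGTGGT in 3.9% and CAGACA in 21.0%. Of the 8 member windows, GAGGAA was in 3 (Aif1, Fcrls and Siglech), GGAAGT in 4 (Fcrls, P2ry12, Siglech and 1 of Sall1), AGGAAGT in 3 (Fcrls, P2ry12 and 1 of Sall1), CAGACA in 2 (Fcrls and Siglech), and the other 3 in 0. Printed are the windows of Aif1 and Fcrls, the members with the lowest log2 fold changes in both comparisons with CVST, and of P2ry12 and Siglech, which were lowest together in 4-PBA replicate 3. Each runs 5′ to 3′ on the gene's own strand, and capitals mark any of the 7 motifs on either strand. They lie at chr17:35176003-35176302 (minus strand) for Aif1, chr3:87263475-87263774 (minus) for Fcrls, chr3:59262936-59263235 (minus) for P2ry12 and chr7:55767934-55768233 (plus) for Siglech. A match describes letters only.
Aif1: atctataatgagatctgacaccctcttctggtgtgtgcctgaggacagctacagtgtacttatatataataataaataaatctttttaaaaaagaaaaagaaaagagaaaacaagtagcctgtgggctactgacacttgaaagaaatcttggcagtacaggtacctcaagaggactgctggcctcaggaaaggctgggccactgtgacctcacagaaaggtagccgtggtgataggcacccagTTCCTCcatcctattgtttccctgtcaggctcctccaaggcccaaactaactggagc
Fcrls: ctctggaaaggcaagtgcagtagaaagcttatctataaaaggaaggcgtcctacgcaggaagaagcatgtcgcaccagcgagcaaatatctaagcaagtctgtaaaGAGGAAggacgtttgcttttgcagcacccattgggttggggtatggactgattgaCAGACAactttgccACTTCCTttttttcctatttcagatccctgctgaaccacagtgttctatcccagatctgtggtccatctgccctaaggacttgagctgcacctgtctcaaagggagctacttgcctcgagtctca
P2ry12: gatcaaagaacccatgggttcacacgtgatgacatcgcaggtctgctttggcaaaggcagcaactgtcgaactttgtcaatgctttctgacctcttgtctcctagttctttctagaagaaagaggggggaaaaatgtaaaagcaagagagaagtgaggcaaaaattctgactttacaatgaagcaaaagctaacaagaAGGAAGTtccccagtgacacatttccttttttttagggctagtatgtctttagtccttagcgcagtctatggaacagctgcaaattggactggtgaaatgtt
Siglech: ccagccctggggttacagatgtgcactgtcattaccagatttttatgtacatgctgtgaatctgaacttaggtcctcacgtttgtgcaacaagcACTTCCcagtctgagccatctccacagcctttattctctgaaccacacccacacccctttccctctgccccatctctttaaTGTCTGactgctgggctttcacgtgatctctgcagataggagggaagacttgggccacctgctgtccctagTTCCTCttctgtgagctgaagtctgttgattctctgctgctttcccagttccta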

How the data were processed

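The authors deposited whole-number counts per gene symbol for 9 brain libraries of separate mice, 3 in each of 3 groups. The second deposited table holds FPKM, which the methods call TPM: for 17446 genes each value gave a whole gene length within 1e-06, and the sums over a library ran from 780195 to 879696. The authors used fastp, HISAT2, StringTie and RSEM on mm10 (GRCm38), with versions, annotation and counting program not given in the sources used here. The members and lists were chosen with earlier results of these data known.

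Counts were scaled by trimmed means (TMM), filtered with filterByExpr (14746 of 20731 genes) and tested in edgeR 4.0.16 (R 4.3.3) with the quasi-likelihood test over all 9 libraries, with no other term. The biological coefficient of variation was 0.287. P-values were adjusted by Benjamini-Hochberg over all genes tested with a threshold of 0.05, intervals are 95%, and log2 CPM used a prior count of 2. Depth of 18100739 to 25091498 counts a library makes 3 counts equal to 0.114 to 0.163 CPM. DESeq2 1.42.0, limma 3.58.1 on log2 FPKM, other scalings, filters and samples, a replicate block and leaving out each library made up 10 kinds of alternative. Named list genes are at most the 3 with the smallest unadjusted p below 0.05 per list and comparison and the 2 with the highest mean FPKM, and pattern-like genes are the 10 with the highest r. Some genes that this rule picks are not reported here. Motifs were searched in RefSeq promoters (GRCm38.p6).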

Additional observations from a re-analysis of the deposited data

How the results depend on the processing

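Member values were recomputed under 10 kinds of alternative and with CVST_Ligation replicate 2 and 4-PBA replicate 3 left out together, an alternative chosen after seeing the data. Of 144 values per comparison, 115, 118 and 132 kept their direction and their side of the unadjusted threshold in CVST_Ligation against CVST, the 4-PBA group against CVST_Ligation and the 4-PBA group against CVST, while 19, 0 and 9 lost the call, 3, 3 and 1 gained it and 7, 23 and 2 turned their sign. Aif1 kept its unadjusted call in CVST_Ligation against CVST in 16 of 16 alternatives. For what follows the cause was not tested, except that fewer libraries enter where some are left out.

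In CVST_Ligation against CVST, the members called at an unadjusted 0.05 were 1 instead of 3 with total counts, with replicate number as a block and with limma on log2 FPKM plus 1 or plus 0.1, and 1 to 4 when a library was left out, where the median log2 fold change was -0.44 to -0.21. Sall1 was at 0.0023 with total counts and at -0.15 to 0.030 with a library left out, and P2ry12 at -0.31 to 0.11 and, without both doubted libraries, at 0.10. In the 4-PBA group against CVST_Ligation, the unadjusted count was 1 instead of 0 without both libraries and 0 to 1 with a library left out, with a median of -0.035 to 0.12. Cx3cr1 turned to 0.012 with total counts and to 0.011 and 0.012 with limma plus 1 and plus 0.1, and Tmem119 to -0.087, Aif1 to -0.27 and Siglech to 0.10 without both libraries. With a library left out, values ran from -0.27 to 0.18 for P2ry12, -0.07 to 0.21 for Tmem119, -0.13 to 0.086 for Cx3cr1, -0.10 to 0.12 for Csf1r, -0.25 to 0.22 for Aif1, -0.22 to 0.24 for Siglech and -0.76 to 0.23 for Fcrls. In the 4-PBA group against CVST, the unadjusted count was 1 instead of 2 with total counts and with only the 2 groups fitted, and 0 to 2 with a library left out, with a median of -0.31 to -0.15. The adjusted count was 2 instead of 0 without both libraries and 0 to 1 with a library left out. P2ry12 turned to 0.10 without both libraries and ran from -0.33 to 0.10 with a library left out.

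Over all genes, the unadjusted counts were 1422, 476 and 2271 in the 3 comparisons, 1206 to 1661, 256 to 1497 and 1517 to 2446 with a library left out, and 1291, 1482 and 2964 without both libraries, beside which the members' counts are read. DESeq2 called 260, 22 and 828 genes at an adjusted 0.05 in the 3 comparisons, against 3, 0 and 18 with edgeR. In CVST_Ligation against CVST the count was 0 with at least 10 counts in every library, 1 with only the 2 groups fitted and with the block, 13 with limma plus 0.1, 6 without both libraries and 0 to 7 with a library left out. In the 4-PBA group against CVST_Ligation it was 1 with the block and without both libraries, 2 with limma plus 1 and 0 to 2 with a library left out. In the 4-PBA group against CVST it was 112 with all genes of at least 1 count, 6 with at least 10 counts in every library, 234 with only the 2 groups fitted, 87 and 134 with limma plus 1 and plus 0.1, 577 without both libraries and 2 to 162 with a library left out. The labels do not pair mice by replicate number. Deviations from the group mean correlated at r of -0.05 to 0.32 between libraries of equal number. In the 3 comparisons, 4, 6 and 2 of 6 libraries were closest to their own number. Whether libraries of equal number share a batch was not tested. Each group holds 3 libraries, so a p that misses a threshold does not show equal levels, and the lowest member count was 128.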

Other observations

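The 5 genes that followed Fcrls most closely were Hmgb2, Ckap2l (r = 0.974), Bin2 (0.973), Mcm10 (0.968) and Gtse1 (0.967), in a search made after the values were seen among genes with a mean of at least 1 CPM. They were picked for this likeness, so a pattern shared with Fcrls is what the search selected, and no test was made. Hmgb2, a chromatin protein of dividing cells, had an r of 0.988 with Fcrls over 9 libraries, and 0.992 without 4-PBA replicate 3. It stood at 23.8, 32.9 and 23.3 CPM in CVST, 15.8, 15.7 and 14.5 CPM in CVST_Ligation, and 9.05, 10.7 and 29.2 CPM in the 4-PBA group. Mcm10, a replication factor, stood at 2.85, 3.55 and 2.55 CPM in CVST, 1.74, 1.29 and 1.01 CPM in CVST_Ligation, and 0.759, 0.884 and 2.59 CPM in the 4-PBA group. Ckap2l, a spindle protein, stood at 6.46, 8.56 and 5.43 CPM in CVST, 4.71, 3.50 and 3.39 CPM in CVST_Ligation, and 1.52, 1.81 and 5.87 CPM in the 4-PBA group.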
